A study of Mus musculus with 66 samples.

Results

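The regions described here are the 457 genomic regions that the authors listed for H3.3 chromatin immunoprecipitation in cultured cortical neurons after 30 min of KCl against 30 min without stimulation. All 457 rows of that comparison were taken, out of 57678 regions in the 7 tables of the series, so no measured value was used to choose among them. The series asked how neuronal activity and adult plasticity bear on histone turnover in the nervous system. The cells were primary cortical neurons of C57bl/6 mice, taken from embryos at E16.5 and kept for 8 days in vitro, and no genetic change is given in the labels. The KCl group had 3 H3.3 libraries (isotonic KCl for 30 min, sequencing lane 4 in the labels). The control group had 4 H3.3 libraries in the labels (no stimulation for 30 min, lane 8), of which 1 is marked as a repeat of the first, but 3 values per region were deposited. Both groups were precipitated with the same Millipore antibody against H3.3, and each had 1 input library (lane 5). Treatment and lane therefore coincide, and their parts in any difference cannot be told apart. Per the labels' protocols, culture experiments had biological triplicates per group.

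H3.3 is a histone H3 variant that enters chromatin without DNA replication, by HIRA at active genes and regulatory elements and by ATRX with DAXX at repeats and heterochromatin. Neurons have left the cell cycle, so exchange of H3 in them runs largely through this variant. Raised extracellular KCl depolarises the membrane and opens voltage-gated calcium channels, which start calcium and cyclic AMP signalling and the transcription of activity genes. A region here is called gained when the KCl mean was above the control mean and lost when it was below. The material was bulk chromatin, in which more H3.3 per cell and more cells with H3.3 at a site cannot be told apart.

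The sequences of 4 regions show the kind of DNA the list holds. They were chosen after their values were seen, as the region with the largest loss in a gene, the region with the largest gain, and 2 gained regions in signalling genes with a match to an activity motif. Each is the plus strand of the mouse build mm9, 5′ to 3′, and lies in an intron. Capitals mark every match, on either strand, to 6 motifs: the cyclic AMP response element TGACGTCA and its core TGACG, which overlaps it, the AP-1 site TGANTCA, the E-box CACGTG, the GC box GGGCGG and the nuclear receptor site AGGTCA.
Usp28, chr9:48807961-48808160, lost: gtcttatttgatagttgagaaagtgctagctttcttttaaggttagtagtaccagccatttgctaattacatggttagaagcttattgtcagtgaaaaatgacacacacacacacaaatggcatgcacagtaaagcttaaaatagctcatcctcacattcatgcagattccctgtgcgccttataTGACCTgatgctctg
Dnase2b, chr3:146104381-146104600, gained: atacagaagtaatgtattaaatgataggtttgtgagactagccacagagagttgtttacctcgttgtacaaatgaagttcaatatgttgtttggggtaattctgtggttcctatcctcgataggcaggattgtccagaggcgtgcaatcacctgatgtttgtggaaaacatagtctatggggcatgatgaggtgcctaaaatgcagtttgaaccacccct
Trio, chr15:27915481-27915680, gained: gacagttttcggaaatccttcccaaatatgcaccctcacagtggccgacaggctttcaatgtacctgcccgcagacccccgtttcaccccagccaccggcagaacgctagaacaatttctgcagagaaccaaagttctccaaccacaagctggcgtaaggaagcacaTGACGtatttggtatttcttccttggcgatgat
Magi3, chr3:103830181-103830420, gained: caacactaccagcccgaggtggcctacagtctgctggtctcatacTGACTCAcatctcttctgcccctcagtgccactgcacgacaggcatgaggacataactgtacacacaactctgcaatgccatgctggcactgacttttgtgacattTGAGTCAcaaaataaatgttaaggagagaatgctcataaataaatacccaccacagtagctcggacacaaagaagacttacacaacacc

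The Usp28 region held 1 CpG and a GC content of 39.0%, and the Trio region held 9 CpG sites and 51.0% GC. The Dnase2b region had no match to the 6 motifs, and the Magi3 region had a pair of AP-1 matches. Over all listed regions, the full TGACGTCA was found in 1 of 457 (0.219%), the lost region that the authors assigned to Pias4 and that the reference annotation places in the last exon of its neighbour Zbtb7a, against 0 of 689 regions listed at 2 hr and 1 of 667 listed at 5 hr. The core TGACG was present in 7.66% of the 30 min regions, against 7.26% at 2 hr and 8.55% at 5 hr. TGANTCA stood in 9.78% of gained and 6.03% of lost regions, AGGTCA in 12.0% of gained and 9.86% of lost regions, CACGTG in 1.09% and 3.01%, and GGGCGG in 2.17% and 3.29%. These matches describe the letters of the regions and were not tested.

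Most listed regions had less H3.3 after KCl. Of the 457, 365 were lost and 92 were gained. At the threshold of 0.05 on the authors' adjusted p there were 359 lost regions (78.6% of those listed) and 91 gained regions (19.9%), together 98.5%. The threshold therefore separates few regions, since the list holds only windows that the authors had already called. At an adjusted p of 0.01 or less, 9 lost and 2 gained regions were left. The 3 KCl values and the 3 control values did not overlap in 457 of 457 regions (100%), which is a property of the listing. With 3 against 3 values an exact permutation test cannot go below a p of 0.1, so none is given.

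Values were low on both sides. Gained regions had a median mean count of 12.0 in KCl (range 10.4 to 16.9) and 3.19 in control (1.68 to 5.44). Lost regions had a median of 3.58 in KCl (1.27 to 6.48) and 13.5 in control (10.7 to 22.7). These are the authors' normalised read counts, and every value was a whole multiple, within 0.1, of what 1 read was worth in its library (0.865, 1.05 and 1.03 in the KCl libraries, 1.27, 0.833 and 0.977 in the control libraries). Summed over its libraries, a gained region rested on 32 to 53 reads in KCl and 5 to 17 in control, and a lost region on 4 to 20 reads in KCl and 32 to 66 in control. The median log2 fold change, KCl over control, was 1.93 in gained and -1.91 in lost regions in the authors' deposited table, where no absolute value was under 1.59.

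**Figure D1:**
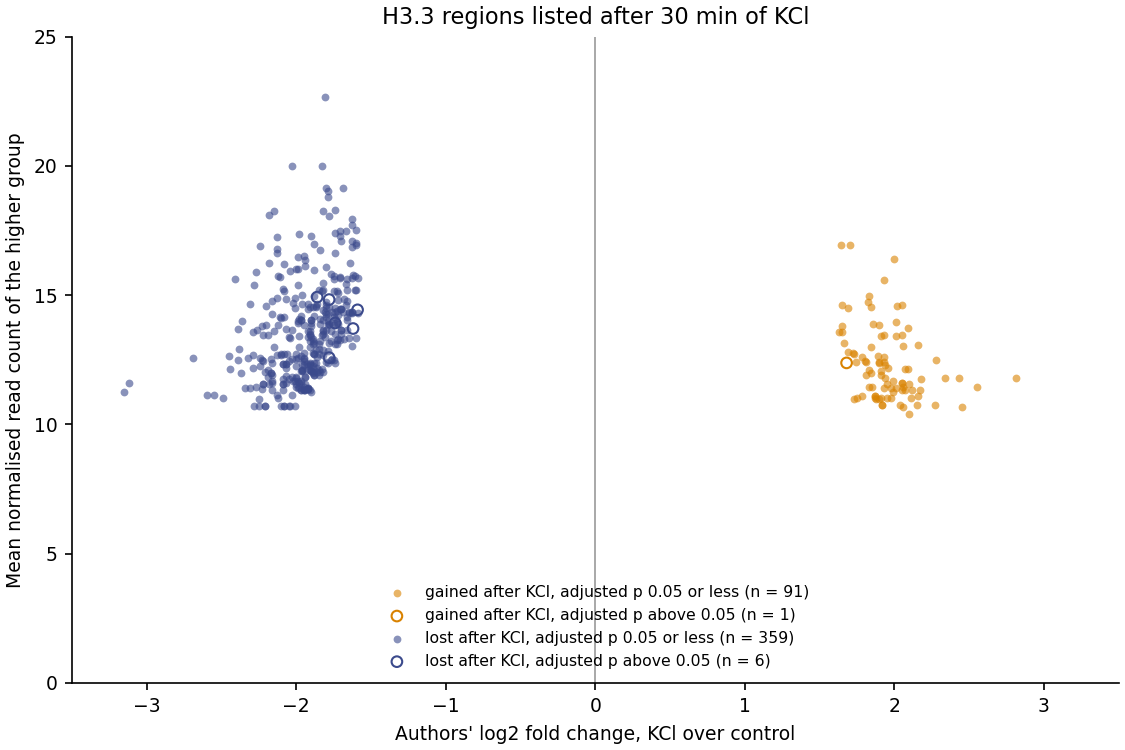
Each point is 1 of the 457 listed regions, placed by the authors' log2 fold change of KCl over control (x axis) and by the mean normalised read count of the group that was higher (y axis). The 365 lost regions lie left of 0 and reach 22.7, the 92 gained regions lie right of 0 and reach 16.9, and open circles mark the 7 regions with an adjusted p above 0.05.

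The ratios to input moved the same way as the counts in most regions. The authors' deposited ratio to input had a median of 2.41 in KCl and 0.575 in control over gained regions, and 0.610 in KCl and 2.29 in control over lost regions. Among the 444 regions with finite ratios, 427 moved the same way (96.2%), 370 of them by at least 2-fold (83.3%). Gained regions did so by at least 2-fold in 90.1% and lost regions in 81.6%. The other 13 regions had a KCl input of 0, which makes the ratio infinite, and 12 of these were lost. The group with more H3.3 stood above its own input in 454 regions. With 1 input library per group, the input's own spread is unknown. The ratio also uses the same group means that were listed for differing, with no absolute log2 fold change under 1.59. Most ratios would therefore move with the counts unless the inputs differed about as much.

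**Figure D2:**
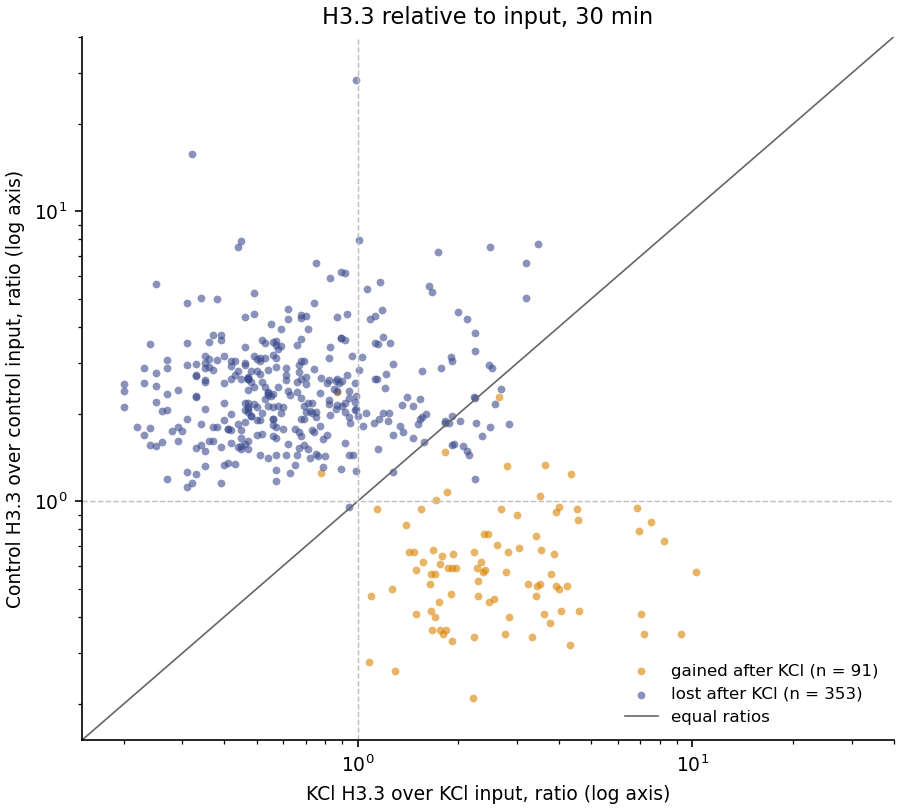
The ratio of H3.3 to input in KCl (x axis) is plotted against that in control (y axis) for the 444 regions with finite ratios, both on log axes, with the line of equal ratios. Of 91 gained regions 89 lie below the line, and of 353 lost regions 338 lie above it.

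The authors named 334 genes at promoter or gene body regions, of which 57 had only gained regions, 276 only lost regions and 1 (Cdh2) both. The protein-coding genes among them were 1.42% of those in the reference annotation. Over all 341 gene regions the median log2 fold change was -1.86, and 17.0% were gained. Gene lists are described below by their counts beside these values. Long genes offer more sequence in which a region can fall: the protein-coding genes named had a median annotated length of 144 kb at gained regions (54 genes) and 86.1 kb at lost regions (264 genes), against 15.4 kb over all annotated protein-coding genes. Of the 341 gene regions 324 were at protein-coding genes. All 341, set against the annotated span of protein-coding genes, came to 33.7 regions per 100 Mb, the value given below for all genes.

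**Figure D3:**
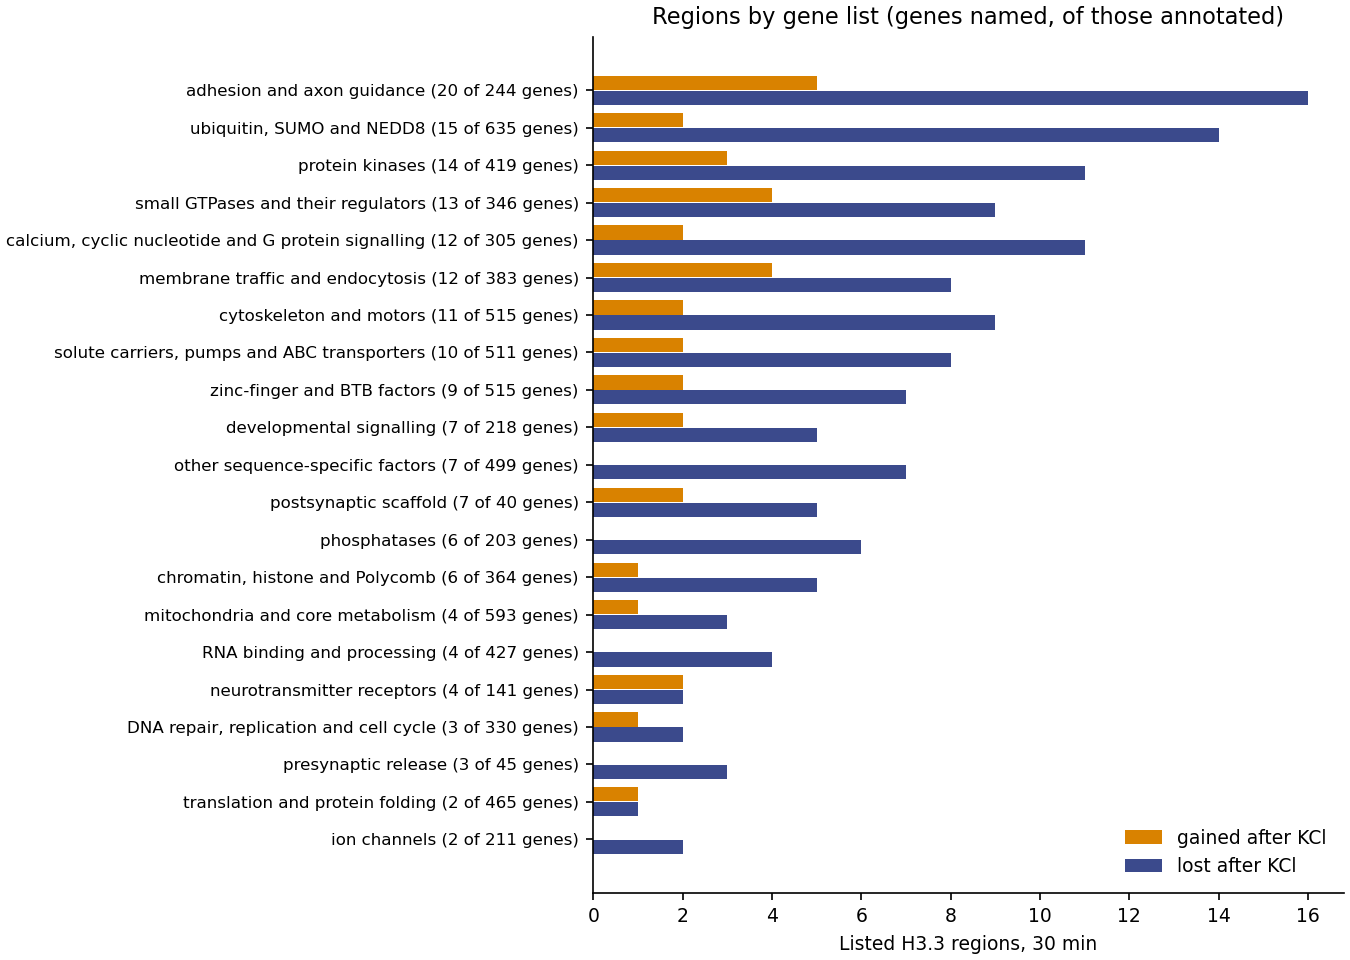
Bars count the listed regions gained (orange) and lost (blue) after KCl in each gene list, with the number of genes named of those annotated beside its name. Lost regions outnumber gained ones in every list shown except the neurotransmitter receptors (2 and 2) and translation and protein folding (1 and 1).

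Of 244 annotated genes for adhesion and axon guidance 20 were listed (8.20%), 4 at gained regions, 15 at lost regions and Cdh2 at both, and all 21 regions passed an adjusted p of 0.05. Of 40 postsynaptic scaffold genes 7 were listed (17.5%), 2 gained and 5 lost, and of 45 presynaptic release genes 3 were listed (6.67%), all lost. Gained regions were 23.8% of the adhesion regions and 28.6% of the postsynaptic ones, against 17.0% of all gene regions. The annotated median lengths of the adhesion, postsynaptic and presynaptic lists were 64.8, 135 and 64.3 kb. Per 100 Mb of gene these lists had 36.2, 56.7 and 38.3 regions, against 33.7 for all genes. The median log2 fold changes were -1.89, -1.75 and -2.07.

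Erc1, a scaffold of the presynaptic active zone, had normalised counts of 4.32, 2.10 and 2.06 in KCl libraries, against 11.4, 12.5 and 11.7 in control libraries (log2 fold change -2.07, adjusted p 0.0257 in the authors' deposited table). Its KCl libraries were all low and its control libraries lay close together. Magi3 and Magi2, membrane-associated scaffolds of junctions and synapses, were the gained members of the postsynaptic list. Magi3 had 14.7, 16.8 and 13.4 in KCl libraries, against 6.34, 3.33 and 2.93 in control libraries, and its log2 fold change was 1.83 with an adjusted p of 0.0174 in the authors' deposited table. Every KCl value was above every control value, and the ratio to input was 9.28 in KCl and 0.350 in control, the second highest finite KCl ratio on the list. The lost members were Dlg2, Homer2, Magi1, Cyfip2, whose product links FMRP to actin regulation, and Nos1, the neuronal nitric oxide synthase.

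Of 141 neurotransmitter receptor genes 4 were listed (2.84%, against 1.42% of all protein-coding genes), Adora1 and Adra1a at gained and Gabbr2 and Gabrb1 at lost regions. Per 100 Mb of gene they had 25.2 regions, against 33.7 for all genes. Adora1 encodes the inhibitory A1 adenosine receptor. It had 10.4, 11.6 and 10.3 in KCl libraries, against 0, 3.33 and 3.91 in control libraries, with a log2 fold change of 2.15 and an adjusted p of 0.0286 in the authors' deposited table. The KCl values were nearly equal, and 1 control library had no read. Of 211 ion channel genes 2 names matched (0.948%), both lost. Kcnd3 encodes an A-type potassium channel of the Kv4 family. It had 1.73, 4.21 and 2.06 in KCl libraries, against 11.4, 11.7 and 12.7 in control libraries (log2 fold change -2.16, adjusted p 0.0198 in the authors' deposited table). The other match, Tmem165, was taken up by its symbol only, since it encodes a Golgi protein of ion homeostasis and not a channel. With the Tmem165 region counted, ion channel genes had 7.94 regions per 100 Mb, against 33.7 for all genes.

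Calcium, cyclic nucleotide and G protein signalling genes had 12 of 305 listed (3.93%), 2 gained and 10 lost, and 46.5 regions per 100 Mb. Of their 13 regions 15.4% were gained, against 17.0% of all gene regions. The lost members were Adcy5, Akap6, Atp2b4, Pde10a, Plcb4, Prkar1b, Prkce, Rgs17, Rgs19 and Rgs3, and the gained ones Dgki and Akap13. Adcy5, an adenylyl cyclase that makes cyclic AMP, had a pair of lost regions in its introns. At chr16:35250421-35250620 the counts were 1.73, 6.31 and 0 in KCl libraries, against 13.95, 11.7 and 11.7 in control libraries, with a log2 fold change of -2.22 in the authors' deposited table. The KCl libraries spread widely there, and all were below the lowest control library. At chr16:35166501-35166740 they were 6.05, 5.26 and 4.12 in KCl libraries, against 17.8, 15.8 and 13.7 in control libraries. Atp2b4, a plasma membrane pump that exports calcium, had 1.73, 3.15 and 3.09 in KCl libraries, against 11.4, 9.99 and 10.7 in control libraries. The nearest annotated start, of any gene, was 338 bp away. The authors' distance for Atp2b4 (-757 bp) counts from the 3′ end of the assigned gene. Its KCl input was 0, so its ratio to input could not be compared. Dgki, a diacylglycerol kinase, had 13.0, 12.6 and 9.26 in KCl libraries, against 3.80, 1.67 and 2.93 in control libraries (log2 fold change 2.05, adjusted p 0.0230 in the authors' deposited table). Akap13, an anchor of protein kinase A, had 10.4, 15.8 and 15.4 in KCl libraries and 1.27, 5.00 and 4.88 in control libraries. In both gained genes the lowest KCl value was more than 2 times the highest control value.

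Small GTPases and their regulators had 13 of 346 genes listed (3.76%), 4 gained and 9 lost, with a median log2 fold change of -1.90. Per 100 Mb of gene they had 40.9 regions, against 33.7 for all genes. Trio, an exchange factor that activates Rac in growing axons, had 11.2, 13.7 and 12.4 in KCl libraries, against 6.34, 1.67 and 1.95 in control libraries (log2 fold change 1.90, adjusted p 0.0198 in the authors' deposited table). Its KCl libraries lay close together and 1 control library was higher than the other two. Dock2, an exchange factor for Rac known mainly from blood cells, had 11.2, 15.8 and 11.3 in KCl libraries and 6.34, 3.33 and 1.95 in control libraries. The region assigned to Cdc42, a GTPase of actin and polarity, had 2.59, 4.21 and 2.06 in KCl libraries, against 16.48, 10.8 and 10.7 in control libraries, with a log2 fold change of -2.10 and an adjusted p of 0.0278 in the authors' deposited table. It lay outside the gene in the reference annotation, 465 bp from the nearest annotated start. Tbc1d15, which turns off Rab GTPases, had 2.59, 2.10 and 4.12 in KCl libraries, against 16.48, 10.8 and 11.7 in control libraries. In both lost genes every KCl value was under 5 and every control value above 10.

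Protein kinases had 14 of 419 genes listed (3.34%), 3 gained and 11 lost, and phosphatases 6 of 203 (2.96%), all lost, 5 of them with an adjusted p of 0.05 or less. Per 100 Mb of gene the kinases had 33.2 regions and the phosphatases 31.6, against 33.7 for all genes. Of all gene regions 17.0% were gained. The phosphatases were the receptor types Ptprd, Ptprg and Ptprn2, the regulatory subunits Ppp2r5e and Ppp6r3, and Tns3, an adhesion protein with a phosphatase-like domain that missed the threshold. Acvr1, an activin and BMP receptor kinase, had 2.59, 5.26 and 0 in KCl libraries, against 20.3, 9.99 and 10.7 in control libraries, with a log2 fold change of -2.39 and an adjusted p of 0.0241 in the authors' deposited table. One control library was high, and the KCl values were below all 3 control values. Pik3c3, the lipid kinase of autophagy and endosomes, had 4.32, 1.05 and 4.12 in KCl libraries, against 20.3, 14.2 and 11.7 in control libraries (log2 fold change -2.28, adjusted p 0.0174 in the authors' deposited table). Ppp2r5e, a subunit of protein phosphatase 2A, had 0.860, 6.31 and 2.06 in KCl libraries, against 12.7, 10.8 and 12.7 in control libraries. Every KCl value was below every control value. The kinase list by symbol also took up Prkar1b, which is the regulatory subunit of protein kinase A, and the lipid kinase Pik3c3. Developmental signalling had 7 of 218 genes (3.21%), Fgfr2 and Tnks gained and Acvr1, Lrp6, Maml3, Notch3 and Ntrk3 lost. That list had 36.2 regions per 100 Mb.

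Sequence-specific factors outside the zinc-finger list were 7 of 499 (1.403%, against 1.42% for all protein-coding genes), and all 7 were lost: Arntl, Camta1, Myt1l, Nr1d1, Ppargc1a, Rora and Thrb. Of all gene regions 17.0% were gained, and the direction of this list was not tested. Rora, Nr1d1 and Arntl belong to the circadian clock, in which ROR and REV-ERB proteins act on Arntl, and Thrb is a thyroid hormone receptor. That the clock genes stand together was seen after their values were known. Rora had 0.860, 5.26 and 3.09 in KCl libraries, against 15.2, 10.8 and 10.7 in control libraries (log2 fold change -2.0, adjusted p 0.0257 in the authors' deposited table). Nr1d1 had 3.46, 6.31 and 3.09 in KCl libraries, against 21.6, 13.3 and 14.7 in control libraries (log2 fold change -1.95, adjusted p 0.0230 in the authors' deposited table). The Nr1d1 region lay within a coding exon, 1260 bp from the nearest annotated start. Ppargc1a was taken up by its symbol only, since it encodes a coactivator of mitochondrial genes. It had 0, 4.21 and 3.09 in KCl libraries, against 11.4, 9.99 and 12.7 in control libraries (log2 fold change -2.23, adjusted p 0.0198 in the authors' deposited table). In each of these genes at least 1 KCl library had 3 reads or fewer, and the control libraries all stood near or above 10.

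**Figure D4:**
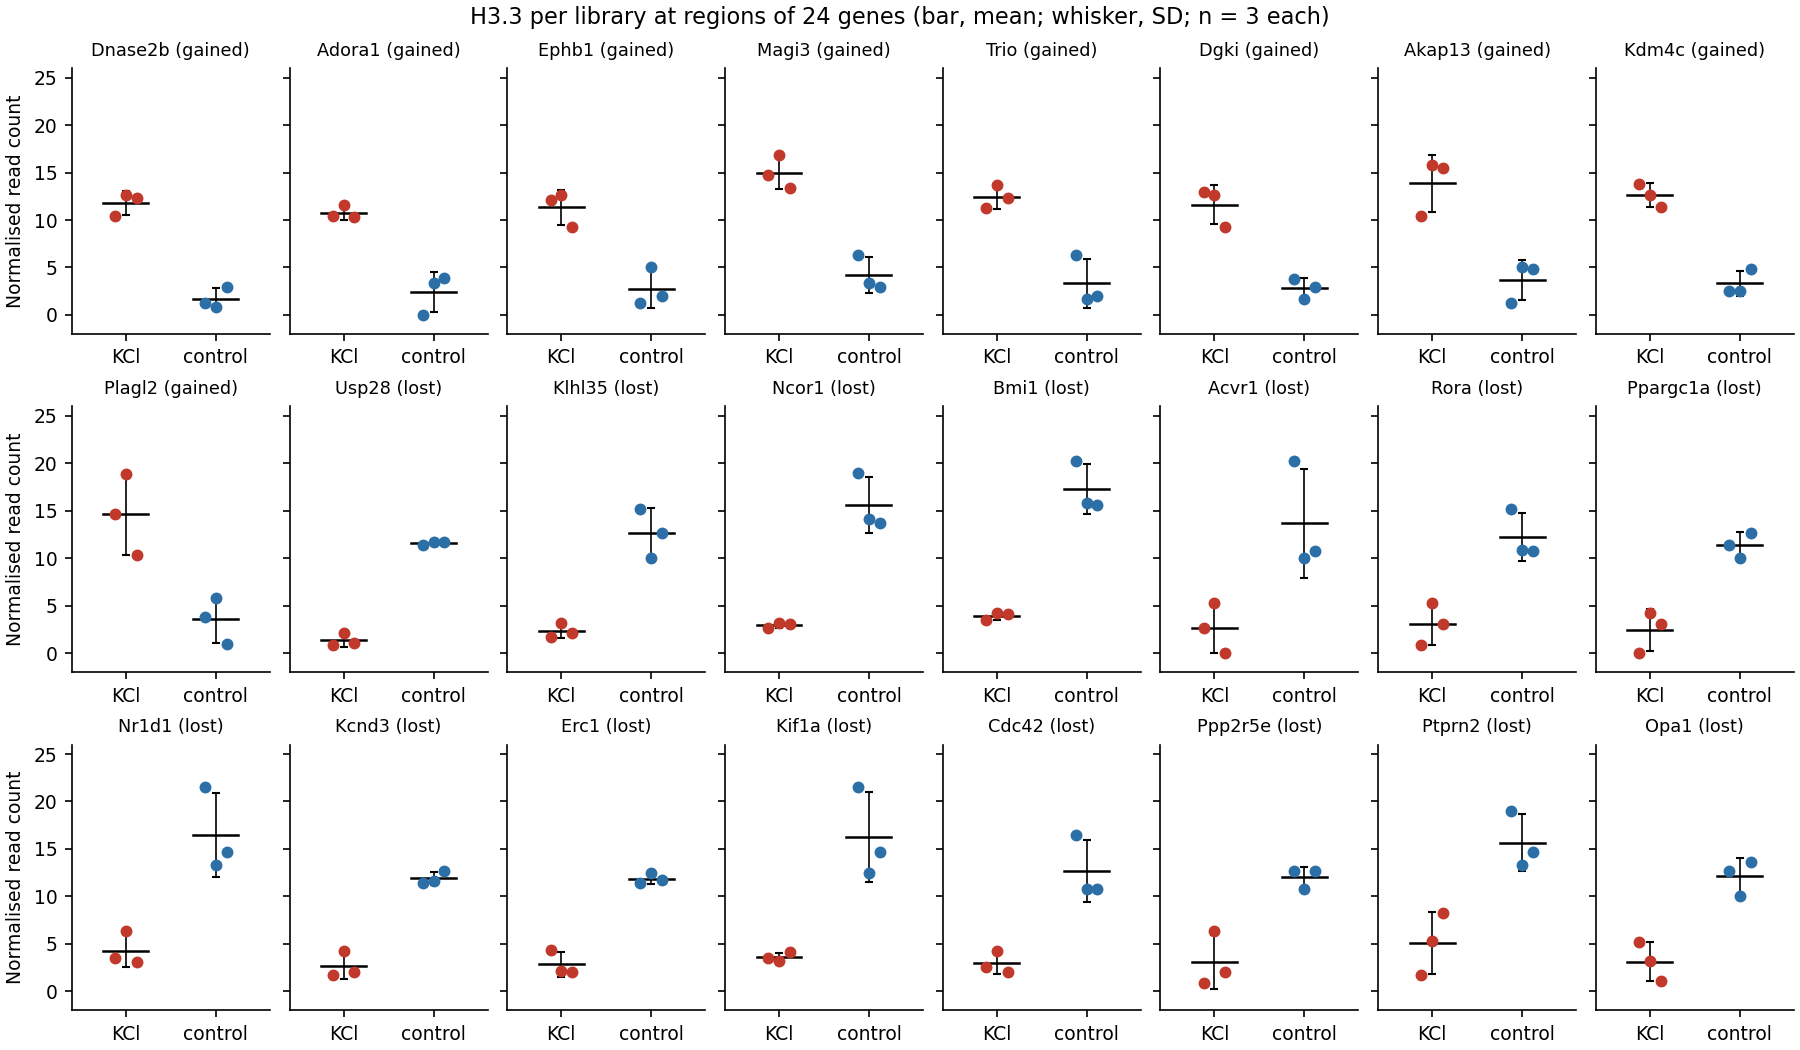
Each panel gives the normalised read counts of the 3 KCl libraries (red, left) and the 3 control libraries (blue, right) at 1 region, with the mean (bar) and SD (whisker). The 9 gained regions have all KCl points above the control points, and the 15 lost regions have all KCl points below them, with the spread widest in the control libraries of Acvr1.

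Chromatin genes were listed about as often as protein-coding genes at large, 6 of 364 (1.65%), with Kdm4c gained and Bmi1, Cbx5, H3f3a, Ncor1 and Phf14 lost, of which H3f3a did not pass an adjusted p of 0.05. Kdm4c, a demethylase of histone H3 lysine 9, had 13.8, 12.6 and 11.3 in KCl libraries, against 2.54, 2.50 and 4.88 in control libraries (log2 fold change 1.93, adjusted p 0.0230 in the authors' deposited table). The lost region assigned to Bmi1 was 985 bp upstream of its start and in a coding exon outside that gene. Zinc-finger and BTB factors had 9 of 515 genes listed (1.75%), Plagl2 and Zfpm2 gained and 7 lost. Plagl2, a zinc-finger activator, had 14.7, 18.9 and 10.3 in KCl libraries, against 3.80, 5.83 and 0.980 in control libraries, with a log2 fold change of 2.05 and an adjusted p of 0.0257 in the authors' deposited table. Its KCl libraries had the second widest SD among gained regions named here (4.32, after Sh3gl1 with 4.87) and still stood above every control library. Zfp704 was among the lost factors, with 6.05, 1.05 and 3.09 in KCl libraries and 20.3, 11.7 and 12.7 in control libraries.

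Ubiquitin, SUMO and NEDD8 genes had 15 of 635 listed (2.36%), 2 gained and 13 lost, on 16 regions or 53.2 per 100 Mb. The gained members were Klhl3 and Rnf169, and the lost ones included Cand2, Fbxl17, Klhl29, Klhl35, March1, Pias4, Rnf157, Rnf24, Trim42, Ube3a, Ube3c and Usp28. Ube3a encodes the ligase lost in Angelman syndrome, and Pias4 a SUMO ligase. Usp28 encodes a deubiquitinase of the DNA damage response. Its counts were 0.860, 2.10 and 1.03 in KCl libraries (4 reads in all), against 11.4, 11.7 and 11.7 in control libraries (35 reads). The control libraries were nearly equal, and the KCl libraries had 1 or 2 reads each. Klhl35, a Kelch-like protein, had 1.73, 3.15 and 2.06 in KCl libraries, against 15.2, 9.99 and 12.7 in control libraries (log2 fold change -2.45, adjusted p 0.0128 in the authors' deposited table). Klhl3, an adaptor of cullin ligases, had 10.4, 13.7 and 9.26 in KCl libraries, against 3.80, 3.33 and 1.95 in control libraries (log2 fold change 1.87, adjusted p 0.0303 in the authors' deposited table).

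Cytoskeleton and motor genes had 11 of 515 listed (2.14%), Cep350 and Dync1i1 gained and 9 lost. Per 100 Mb of gene they had 24.5 regions, against 33.7 for all genes. The symbols Ccdc25, Ccdc6 and Ccdc67 were matched through a coiled-coil name and are not all cytoskeletal. Kif1a, a motor that carries synaptic vesicle precursors, had 3.46, 3.15 and 4.12 in KCl libraries, against 21.6, 12.5 and 14.7 in control libraries (log2 fold change -2.18, adjusted p 0.0174 in the authors' deposited table). Dync1i1, a chain of the dynein motor that runs the other way along axons, had 10.4, 11.6 and 10.3 in KCl libraries, against 2.54, 3.33 and 1.95 in control libraries (log2 fold change 2.04, adjusted p 0.0286 in the authors' deposited table). The KCl libraries agreed closely in both genes, low in Kif1a and high in Dync1i1. Membrane traffic and endocytosis had 12 of 383 genes (3.13%), 4 gained and 8 lost, and 41.1 regions per 100 Mb. Sh3gl1, an endophilin of vesicle recycling, had 13.0, 18.9 and 9.26 in KCl libraries, against 5.07, 1.67 and 2.93 in control libraries. Trappc9, a subunit of a Golgi tethering complex, had 2.59, 1.05 and 4.12 in KCl libraries, against 15.2, 10.8 and 10.7 in control libraries, with a log2 fold change of -2.24 in the authors' deposited table.

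Solute carriers, pumps and ABC transporters had 10 of 511 listed (1.96%, against 1.42% of all protein-coding genes). Of these 2 were gained and 8 lost, 7 of the 8 with an adjusted p of 0.05 or less. RNA binding and processing had 4 of 427 (0.937%), Celf5, Khdrbs2, Nup160 and Srrm4, all lost. Of all gene regions 17.0% were gained, and the direction of these lists was not tested. Srrm4, a splicing regulator of neuronal microexons, had 6.92, 4.21 and 1.03 in KCl libraries, against 16.48, 10.8 and 14.7 in control libraries. Mitochondria and core metabolism had 4 of 593 (0.675%), Cyp11a1 gained and 3 lost, among them Opa1 and Timm9. Opa1, which fuses the inner mitochondrial membrane, had 5.19, 3.15 and 1.03 in KCl libraries and 12.7, 9.99 and 13.7 in control libraries (log2 fold change -1.96, adjusted p 0.0290 in the authors' deposited table). DNA repair, replication and cell cycle had 3 of 330 (0.909%), and translation and protein folding 2 of 465 (0.430%), Uggt1 gained and Rps3 lost. In the order given, these lists had 35.5, 18.5, 23.6, 19.6 and 17.2 regions per 100 Mb, against 33.7 for all genes. Dnase2b, which encodes an acid endonuclease known mainly from the lens, had 10.4, 12.6 and 12.4 in KCl libraries, against 1.27, 0.830 and 2.93 in control libraries, and its log2 fold change of 2.81 was the largest gain in the authors' deposited table. No immediate-early gene (0 of 43), late activity gene (0 of 34), housekeeping gene (0 of 19) or olfactory or vomeronasal receptor gene (0 of 1409) was listed. The immediate-early genes together span 0.538 Mb of annotation, against 1011 Mb for all protein-coding genes, and changes under about 3-fold were not listed. Their absence is therefore not a measurement of no change.

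Of the genes named, 7 had 2 regions. Cdh2, which encodes N-cadherin of neuronal contacts, had a gained region (10.4, 12.6 and 9.26 in KCl libraries, against 1.27, 2.50 and 2.93 in control libraries) and a lost region (3.46, 4.21 and 3.09 in KCl libraries, against 12.7, 12.5 and 15.6 in control libraries). The other six, Ablim1, Adcy5, Dab1, Enox1, Fbxl17 and Tanc2, had both regions lost. Dab1 is the adaptor that carries the reelin signal into the neuron, and Reln, which encodes reelin, was itself named at a lost region in a coding exon. Both genes are long (1125 kb for Dab1 and 460 kb for Reln), and 17.0% of all gene regions were gained. Whether the pair stands out was not tested. Dab1 had 5.19, 2.10 and 3.09 in KCl libraries, against 11.4, 14.99 and 11.7 in control libraries, at chr4:103567561-103567760. Its other region, chr4:103908681-103908880, had 2.59, 6.31 and 3.09 in KCl libraries, against 25.4, 9.99 and 12.7 in control libraries, so that 1 control library lay far above the others. The pair lay 275390 and 616510 bp from the gene start. Tanc2, a scaffold of dendritic spines, had 4.32, 5.26 and 5.15 in KCl libraries, against 27.9, 17.5 and 14.7 in control libraries, at a region 24 bp upstream of a transcript start. Its control mean of 20.0 was among the highest of any listed region.

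The highest level was at Dolpp1, an enzyme of dolichol recycling, with 6.92, 8.41 and 4.12 in KCl libraries, against 27.9, 16.7 and 23.4 in control libraries (log2 fold change -1.81, adjusted p 0.0140 in the authors' deposited table). Its ratio to input was 0.990 in KCl and 28.5 in control, the highest ratio listed. The intergenic region with the largest loss, chr3:8220201-8220400, had 1.73, 1.05 and 1.03 in KCl libraries, against 11.4, 11.7 and 10.7 in control libraries (log2 fold change -3.15 in the authors' deposited table). The intergenic gained region at chr5:133318841-133319100 had 19.0, 14.7 and 15.4 in KCl libraries and 5.07, 3.33 and 3.91 in control libraries, and its KCl ratio to input of 10.3 was the highest finite KCl ratio.

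Exceptions were few. The 7 regions above an adjusted p of 0.05 were assigned to H3f3a, Tns3, Ict1, 2810011L19Rik, Zmpste24 and Atp8a1, all lower in KCl, and to 1 intergenic site that was higher. H3f3a is itself a gene of H3.3, and its intronic region had 6.05, 3.15 and 3.09 in KCl libraries, against 20.3, 10.8 and 13.7 in control libraries, with an adjusted p of 0.0592 in the authors' deposited table. Zmpste24, the protease that matures lamin A, had 2.59, 7.36 and 1.03 in KCl libraries, against 15.2, 10.8 and 11.7 in control libraries, with an adjusted p of 0.134 in the authors' deposited table. Relative to input 17 regions did not move with their count. At 2410001C21Rik the count was lower in KCl (3.51 against 13.2 in control), while the deposited ratio to input was 2.24 in KCl and 1.19 in control. At Pkn2, a protein kinase, the count was higher in KCl (12.7 against 3.83 in control), while the ratio was 0.870 in KCl and 2.39 in control. Siah2, a ubiquitin ligase, had a lower count in KCl (4.43 against 14.3 in control) with a ratio of 2.84 in KCl and 1.85 in control. For these regions the direction depends on whether input is taken into account.

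Gained and lost regions differed in where they lay. By the authors' classes, 16.3% of gained and 24.1% of lost regions were at promoters, 46.7% and 53.4% in gene bodies, and 37.0% and 22.5% between genes. For genes on the minus strand the authors' distances count from the left end, which is the 3′ end. Some regions classed as promoter therefore lie near 3′ ends, such as Siah2 and Tns3, 9239 and 7544 bp from the nearest annotated start. Of 30 regions in gene deserts 11 were gained, and of 14 at proximal promoters 1 was gained. These shares were not tested. In the reference annotation 261 regions lay in introns, 139 between genes, 34 in coding exons (3 gained), 13 in 3′ UTRs, 8 in non-coding exons and 2 in 5′ UTRs. Within 1 kb of an annotated gene start were 42 regions, 4.35% of gained and 10.4% of lost regions. The median distance to the nearest start was 21671 bp in gained and 12718 bp in lost regions. Regions were 200 to 340 bp wide, 313 of them 200 bp. Median GC content was 45% in gained and 47.5% in lost regions, with 0.909 and 1.00 CpG per 100 bp.

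None of the 457 regions overlapped a region listed for H3.3 at 2 hr (689 regions) or 5 hr (667 regions) of KCl, which have their own controls. Genes recurred more than sites. Of the 334 genes, 33 were named at 2 hr (9.88%, and 7.64% of the 432 genes there), 24 in the same direction. At 5 hr 22 were named (6.59%, and 4.87% of 452), 16 in the same direction, but 20 of 667 regions at 5 hr had an adjusted p of 0.05 or less, and none of the 22 genes passed in both. Regions were mostly lost at each time, with 20.1% gained at 30 min, 14.4% at 2 hr and 44.2% at 5 hr. Some agreement in direction therefore comes from these shares alone. These shares were not tested. Shared genes were often long, such as Dlg2 (1945 kb), Dab1 (1125 kb), Ptprd (2271 kb) and Opcml (1135 kb).

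**Figure D5:**
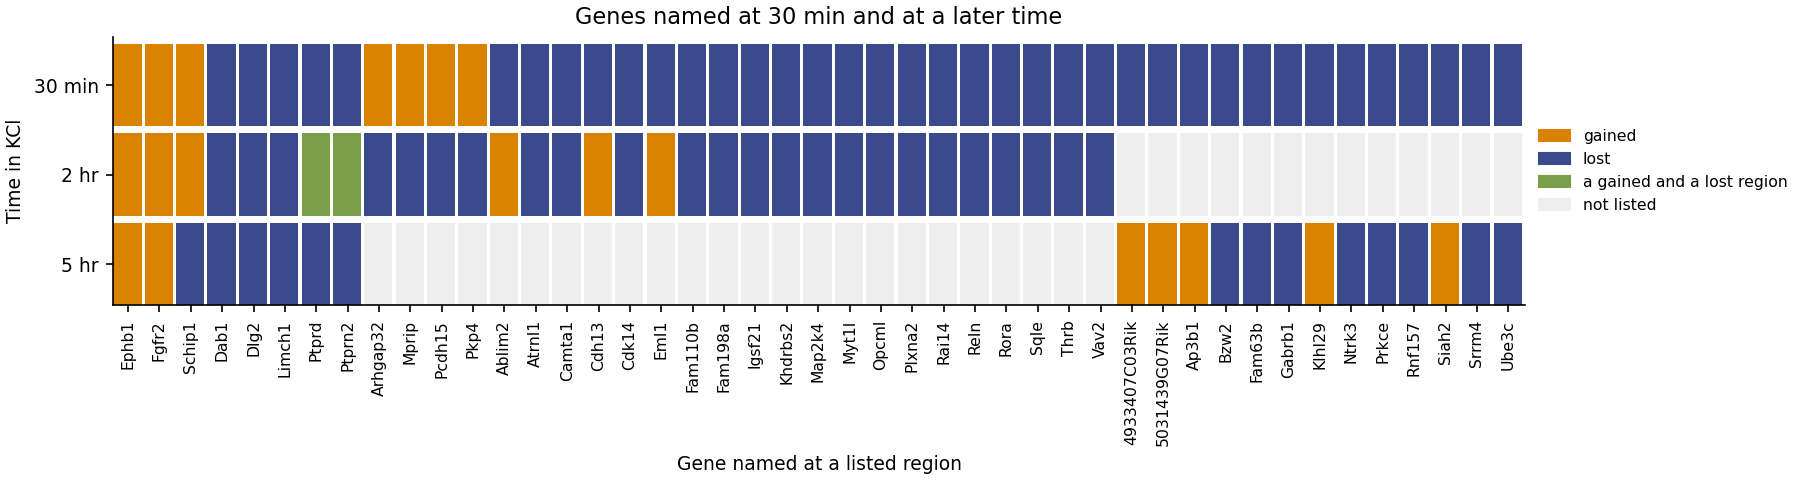
Each column is 1 of 45 genes named at 30 min and at a later time, and each row a time in KCl. Orange marks gained, blue lost, green a gained and a lost region, and grey a gene not listed. The 8 genes at the left are named at all 3 times.

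The genes named at all 3 times numbered 9 and included Dab1, Dlg2, Ephb1, Fgfr2, Limch1, Ptprd, Ptprn2 and Schip1. Of the 9, 6 kept a direction, with Ephb1 and Fgfr2 gained and Dab1, Dlg2 and Limch1 among the lost. Fgfr2, a receptor for fibroblast growth factors, had 10.4, 12.6 and 14.4 in KCl libraries, against 3.80, 5.00 and 1.95 in control libraries (log2 fold change 1.80, adjusted p 0.0299 in the authors' deposited table). Its region lay 675235 bp from the 3′ end of the assigned gene, which the reference annotation extends over 3009 kb. Limch1, an activator of non-muscle myosin, had 1.73, 4.21 and 2.06 in KCl libraries, against 15.2, 9.99 and 10.7 in control libraries. Ptprn2, a protein of dense-core vesicles, had 1.73, 5.26 and 8.23 in KCl libraries, against 19.0, 13.3 and 14.7 in control libraries, with gained as well as lost regions at 2 hr. Schip1, a protein of the axon initial segment, had 10.4, 11.6 and 11.3 in KCl libraries, against 5.07, 1.67 and 2.93 in control libraries, and was gained at 2 hr and lost at 5 hr. Within 1 kb, 4 regions had a neighbour at 5 hr, at Bzw2, Rnf157 and Srrm4 (lost at both times) and at Siah2 (lost at 30 min, gained at 5 hr).

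The labelled cell type could not be checked against its markers, because the table holds differing regions only. Of 24 neuron markers 2 were listed (Celf5 and Snap25, both lost), and of 20 interneuron markers 1 (Reln, lost). Of 20 endothelial and pericyte markers 1 was listed (Pecam1, gained), and of 20 astrocyte, 19 oligodendrocyte lineage and 19 microglia markers 0. Whether the share of any cell type moved with these regions was not tested.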

How the data were processed

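H3.3 immunoprecipitation libraries of cultured neurons were compared in 1 deposited table of differing regions, and the tables of 2 hr and 5 hr were used for the position, direction, adjusted p and base content of their regions, not for levels. The submitters' processing notes name Bowtie 0.12.7, bedtools 2.16.2 and, as mouse build, mm9. The tool that called the regions and its test are not given in the sources used here. Per the file headers, the authors deposited normalised read counts of each library, packed in 1 cell per group without library names, and the group mean of this coverage signal. The authors also deposited a ratio of each mean to input, a log2 fold change of KCl over control, and for each region a p-value and its adjusted p-value, which were used as they stood. Every listed region had a window p of at most 9.81e-05. Library totals were not used here, so depth was read from the value of 1 read. Small read numbers limit the precision, and the SD of 3 values includes counting error.

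Whole reads, overlaps, gene lists, position and motifs were computed in Python 3.11.15 with pandas 2.3.3 and pysam 0.24.0, against the mm9 genome and its GENCODE annotation, and the routines were tested on simulated data. Genes are those the authors assigned, at most one per region. No new test was run, because the regions had been chosen on these libraries. The regions and the gene lists were chosen with earlier results of these data known. Genes were named by rule. Of each list, up to 4 members were taken with an adjusted p of 0.05 or less and groups that do not overlap. Their ratio to input had to move the same way by at least 2-fold or be not finite, as in Atp2b4 and Ptprn2. Also named were the regions with the largest change, level or width, genes with 2 or more regions, regions above the threshold or against input, and genes named at all 3 times. Other names are given as members of a list or were chosen after their values were seen. A few listed genes are not reported here.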

Additional observations from a re-analysis of the deposited data

How the results depend on the processing

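Leaving out each value in turn and keeping regions that still differed by 3-fold, 74 to 90 of 91 gained regions and 286 to 349 of 359 lost regions were left, 17.5% to 23.9% of them gained. Because the groups do not overlap in any listed region, leaving out a value cannot turn a direction. Group medians at 3-fold with a pseudocount of 1 left 60 gained and 227 lost regions, a 4-fold minimum 34 and 124, an adjusted p of 0.01 or less 2 and 9, and a higher group mean of 12 or more 46 gained regions, 13.9% of those left. Relative to input, 96.2% of regions moved the same way at all and 66.2% by at least 3-fold, against 83.3% by at least 2-fold. Within 1 kb of an annotated start, 4.35% of gained and 10.4% of lost regions counted as promoter. At 5 hr, 4 regions lay within 1 kb of a 30 min region, and 0 genes were shared with an adjusted p of 0.05 or less in both tables. All listed regions, autosomes alone and a 2-fold minimum on the log2 scale gave counts within 1.5 times the reported ones.

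No paired analysis was possible because the packed values carry no library names. A filter on repeat-masked sequence was not run, since the genome used here is not masked. Read numbers of 4 to 20 in the lower group limit every single region, and changes under about 3-fold were not listed.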

Other observations

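Some listed regions belonged to no protein-coding gene or lay on chromosome Y. Both regions on chromosome Y were gained: chrY:1267361-1267580 had 21.6, 15.8 and 13.4 normalised counts in KCl libraries, against 5.07, 8.33 and 2.93 in control libraries, and chrY:2486621-2486880 had 16.4, 17.9 and 16.47 in KCl libraries, against 2.54, 9.16 and 3.91 in control libraries. Relative to input, chrY:2486621-2486880 differed little, with a ratio of 2.64 in KCl and 2.29 in control. At chrY:1267361-1267580 the ratio to input was 1.5 in KCl and 0.58 in control. Chromosome 19 had 12 lost regions and 0 gained ones. Of 7 pseudogene regions 6 were lost, and of 5 regions at long intergenic RNAs 4 were lost. Gained regions were thus 14.3% at pseudogenes and 20.0% at long intergenic RNAs, near the 20.1% of all listed regions. The counts by chromosome and gene type were not tested.

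The base composition of gained and lost regions differed between times. Median GC content was 45% in gained and 47.5% in lost regions at 30 min, 49.0% and 44.5% at 2 hr, and 51.4% and 44.2% at 5 hr. All listed regions were used, though 20 of 667 at 5 hr had an adjusted p of 0.05 or less. At 30 min 450 of 457 did, and at 2 hr 686 of 689. The share of gained regions was 20.1% at 30 min, 14.4% at 2 hr and 44.2% at 5 hr. These differences were not tested.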
